A study of Mus musculus with 8 samples.

Results

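The genes described here are 35 genes of amino acid transport and of the ATF4 response, chosen by symbol from a list of eIF2 kinases, transcription factors, feedback and stress effectors, synthesis enzymes and amino acid transporters. All 35 were found in the deposited table of 55487 genes, on 36 rows, because Ddit3 has 2 gene identifiers. The study set the mouse embryonic stem cells E14-Tg2a, labelled WT and called parental here, against line 4D, derived from them and labelled Tbx1-/-, which lacks the T-box transcription factor Tbx1 whose human counterpart lies in the DiGeorge syndrome interval. Both lines were taken on day 6 of the same serum-free differentiation towards precardiac mesoderm, with 4 libraries per line and no other treatment. RNA was measured by QuantSeq, which sequences the 3′ end of polyadenylated transcripts. The labels list non-essential amino acids and L-glutamine in the stem cell medium, and the amino acids of the differentiation medium are not given in the sources used here. All 4 mutant libraries came from the same line, so that the genotype and other properties of that line cannot be told apart. The series' design text calls the libraries biological replicates.

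The ATF4 response is the transcriptional arm of the integrated stress response. A family of 4 kinases senses different stresses and phosphorylates the translation initiation factor eIF2, which lowers general protein synthesis while favouring translation of the transcription factor ATF4. ATF4 binds, often as a dimer with a C/EBP protein, to C/EBP-ATF response elements and raises genes that make and import amino acids. Because ATF4 itself is controlled largely at translation, the RNA of its targets is the usual readout of the response in expression data. Growing mesoderm and stem cells also use these transporters and the serine pathway without stress, to supply protein and nucleotide synthesis.

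To show the C/EBP-ATF response element, its core TGATGNAA was searched on both strands in the RefSeq promoter windows of build GRCm38.p6. These windows reach from 250 bases before to 50 bases after a start site. Windows were given for 31 of the 35 genes, and 8 of these 31 (25.8%) held the core, compared with 1219 of 27025 genes (4.51%) over all windows. Known ATF4 targets were among the genes chosen, so the higher share can follow from the choice and is not a result of these data. The matches are printed below as 30 bases from 5′ to 3′ on the strand of the gene, with the core, or its reverse complement TTNCATCA, in capitals.
Atf3, chr1:191183425-191183454, minus strand: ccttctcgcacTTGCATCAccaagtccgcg
Chac1, chr2:119351038-119351067, plus strand: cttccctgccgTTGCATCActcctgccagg
Trib3, chr2:152344028-152344057, minus strand: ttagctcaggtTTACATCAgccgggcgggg
Slc7a11, upstream match, chr3:50443661-50443690, minus strand: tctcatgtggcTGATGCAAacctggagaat
Slc7a11, downstream match, chr3:50443642-50443671, minus strand: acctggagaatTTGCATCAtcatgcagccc
Asns, chr6:7693214-7693243, minus strand: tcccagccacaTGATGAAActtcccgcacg
Nupr1, chr7:126625562-126625591, minus strand: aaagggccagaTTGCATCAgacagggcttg
Slc1a4, chr11:20332699-20332728, minus strand: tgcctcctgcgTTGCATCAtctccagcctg
Pycr1, chr11:120643833-120643862, minus strand: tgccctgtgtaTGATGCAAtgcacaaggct
These matches describe letters only and are not binding sites. The 2 printed stretches of Slc7a11 overlap, and its cores are in opposite orientation. The Atf3, Chac1, Nupr1 and Slc1a4 matches and the downstream Slc7a11 match share the letters TTGCATCA, and the upstream Slc7a11 and Pycr1 matches have their reverse complement, TGATGCAA.

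Total counts ranged from 3803561 to 6293907 per library, and 13280 genes passed the filter on low counts. Tbx1 had 39, 65, 38 and 22 counts in the 4 parental libraries and 3, 0, 1 and 0 counts in the 4 mutant libraries. Mutant library 4 stood apart from the others in depth and composition. It had the lowest total, 14850 genes with a count compared with 18213 to 19134 elsewhere, and 17.7% of its counts in the ribosomal RNA gene CT010467.1 compared with 8.9% to 13% elsewhere. Levels are given as CPM, a gene's count relative to the total of its library, after scaling by the trimmed mean of M values (TMM). Markers of cardiac mesoderm were present: 14 of 14 listed genes passed the filter and their summed level was 1802 to 3659 CPM in parental and 1742 to 2126 CPM in mutant libraries. By the edgeR quasi-likelihood test at an adjusted p under 0.05, 0 of the 14 were called different. At an unadjusted p under 0.05 stood 9 (64.3%, compared with 11.9% of all tested genes), 7 lower and 2 higher. DESeq2 and limma-voom each called Hand2 higher and Hand1 and Isl1 lower. Libraries of a line differed in cardiomyocyte genes: Myl7, an atrial myosin light chain, had 703, 352, 151 and 88.5 CPM in parental and 132, 127, 142 and 8.25 CPM in mutant libraries 1 to 4, and Nkx2-5 and Tbx5 had 0 counts in mutant library 4. Endothelial and haematopoietic markers summed to 376 to 594 CPM in parental and 991 to 1548 CPM in mutant libraries. Of these 4 of 15 (26.7%, compared with 0.745% of all tested genes) were called higher, all globin genes. With higher levels at an unadjusted edgeR p under 0.05 stood 7 of the 15 (46.7%, compared with 6.01% of all tested genes). None of the 15 was lower at that p, and 14 had a log2 fold change above 0. Endoderm and epithelial markers summed to 389 to 733 CPM and 330 to 445 CPM, with 2 of 11 tested genes called lower (18.2%, compared with 0.67% of all tested genes). With lower levels at an unadjusted edgeR p under 0.05 stood 4 of the 11 (36.4%, compared with 5.92% of all tested genes). None of the 11 was higher at that p, and 9 had a log2 fold change below 0. Pluripotency markers summed to 34.8 to 52.2 CPM and 19.7 to 49.2 CPM, and neural markers to 40.7 to 56.5 CPM and 26.5 to 46.1 CPM. In either list 0 genes were called by edgeR, DESeq2 or limma-voom, and Olig2 had 0 counts in every library. An unadjusted edgeR p under 0.05 was found for 1 lower gene in each list, of 6 (16.7%) and 5 (20%) tested genes. In such bulk RNA, fewer cells of a type and less RNA per cell cannot be told apart.

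Among the 35 genes 1 transporter, Slc38a5, fell in the mutant line, and no kinase, transcription factor, feedback gene or synthesis enzyme was called in either direction. Of 31 genes that passed the filter, 0 were called higher and 1 was called lower by the edgeR quasi-likelihood test (adjusted p under 0.05 over all 13280 genes), and DESeq2 and limma-voom gave the same counts. Over all tested genes, 1.42% were called in either direction, 0.745% higher and 0.67% lower, so that 1 of 31 is near the background. At an unadjusted edgeR p under 0.05 stood 3 of the 31 genes (9.68%), all transporters with lower levels in the mutant line. Over all tested genes this share was 11.9% in either direction, 5.92% lower and 6.01% higher. Within the 10 tested transporters alone, these 3 genes are 30%. The 31 genes had a median log2 fold change of 0.03, against 0.00 for all tested genes. Their median absolute log2 fold change was 0.18, compared with 0.24 over all tested genes. Summed over all 35 genes, levels were 1760, 1817, 1857 and 1935 CPM in the parental and 1698, 1726, 2036 and 1769 CPM in the mutant libraries. The mutant range of these sums encloses the parental range.

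**Figure D1:**
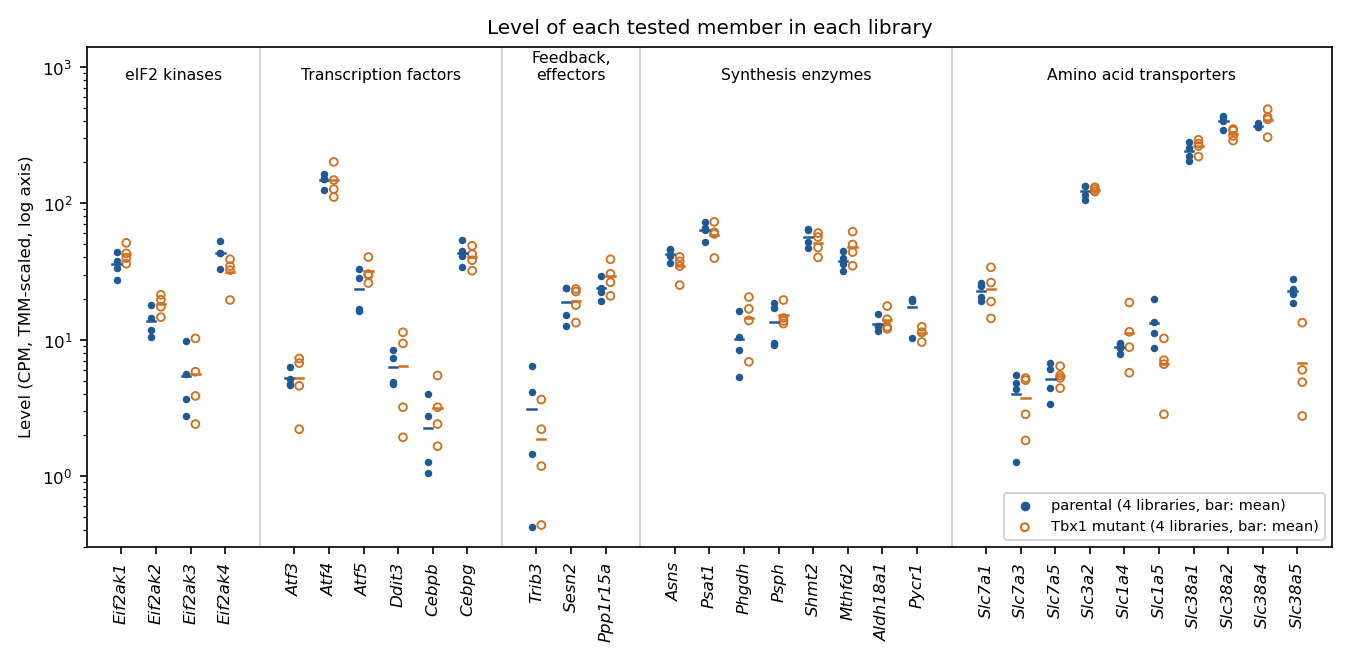
Level of each of the 31 tested genes in CPM on a log axis, by role, with filled points for the 4 parental and open points for the 4 mutant libraries and bars at the means. Apart from Slc38a5, at 18.7 to 27.9 CPM in parental and 2.75 to 13.3 CPM in mutant libraries, the ranges of the lines overlap for every gene shown.

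The 4 eIF2 kinases were all measured, and 0 were called by edgeR, DESeq2 or limma-voom, with 0 at an unadjusted edgeR p under 0.05. They are Eif2ak1 (HRI), which responds to lack of haem, Eif2ak2 (PKR), which responds to double-stranded RNA, Eif2ak3 (PERK), the sensor of the endoplasmic reticulum, and Eif2ak4 (GCN2), which binds uncharged tRNA when amino acids are scarce. Over all 8 libraries the highest mean level was that of Eif2ak1 (ENSMUSG00000029613.15, chromosome 5, 143817788 to 143904251), with 37.6, 43.8, 27.3 and 33.7 CPM in parental libraries 1 to 4. The mutant line had 51.2, 36, 42.9 and 39.6 CPM. Mutant library 1 alone exceeded all parental values, and the lines overlapped. Its log2 fold change was 0.26 ± 0.19 (SE), with a 95% interval of -0.15 to 0.66 and an edgeR adjusted p of 0.672.

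Eif2ak4, the kinase tied to amino acid shortage, had 32.9 to 52.6 CPM in parental and 19.5 to 38.8 CPM in mutant libraries. Its log2 fold change was -0.45 ± 0.22 (SE), with a 95% interval of -0.91 to 0.01 and an edgeR adjusted p of 0.437. All 4 mutant values lay below the parental mean, and 2 lay below every parental value, the lowest in mutant library 4. Eif2ak2 had 10.4 to 17.9 and 14.6 to 21.3 CPM and a log2 fold change of 0.42 ± 0.28. Eif2ak3 was low, at 2.4 to 10.2 CPM over the 8 libraries. Its 95% interval of -1.19 to 1.23 does not exclude a 2-fold change in either direction.

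Of the 7 transcription factors of the response 6 were tested, with 0 called by edgeR, DESeq2 or limma-voom and 0 at an unadjusted edgeR p under 0.05. Atf4 (ENSMUSG00000042406.8, chromosome 15, 80255184 to 80257541, plus strand) had 150, 150, 125 and 165 CPM in parental libraries 1 to 4. The mutant line had 111, 148, 201 and 127 CPM in libraries 1 to 4. The parental values thus lie inside the mutant range, with mutant library 3 highest and mutant library 1 lowest. Mean levels were 148 ± 16.6 and 147 ± 39.1 CPM (SD, n = 4), and the log2 fold change was -0.01 ± 0.16 (SE), with a 95% interval of -0.34 to 0.32 and an edgeR adjusted p of 0.993. Its sign changed under some alternatives, including scaling by library size alone. ATF4 protein was not measured.

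Atf5, a factor that like Atf4 is regulated in translation, had 16.1 to 32.9 CPM in parental and 26 to 40.3 CPM in mutant libraries, and a log2 fold change of 0.43 ± 0.26. Cebpg, a dimer partner of ATF4, had 34.3 to 53.3 and 32.0 to 48.7 CPM and a log2 fold change of -0.10 ± 0.19, which turned to 0.01 in 1 alternative fit. The stress-induced factors were low in both lines. Ddit3 (CHOP, a pro-apoptotic factor raised by strong stress) had 1.92 to 11.3 CPM over the 8 libraries, Atf3 2.20 to 7.27 CPM and Cebpb 1.05 to 5.45 CPM. Their 95% intervals reached past 2-fold in both directions, so that a 2-fold difference is not excluded. The second Ddit3 identifier, which overlaps the first on the same strand, had 0 counts in every library, so that reads could have been left uncounted between them and the level of Ddit3 is uncertain. Nupr1, a small stress-induced chromatin protein, did not pass the filter, with at most 9 counts in a library.

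Of the 4 feedback and stress effectors, which are strongly raised when the response is active, 3 were tested, with 0 called by edgeR, DESeq2 or limma-voom and 0 at an unadjusted edgeR p under 0.05. Ppp1r15a (GADD34), the subunit that directs a phosphatase to eIF2 and ends the response, was the most abundant of these 4 genes. It had 22.2, 19.2, 29.2 and 24.0 CPM in parental and 30.4, 20.9, 26.3 and 38.8 CPM in mutant libraries 1 to 4. Here mutant libraries 1 and 4 exceeded every parental value while mutant libraries 2 and 3 lay inside the parental range. The log2 fold change was 0.29 ± 0.23, with a 95% interval of -0.20 to 0.79 and an edgeR adjusted p of 0.69. Sesn2, a leucine sensor that restrains mTORC1, had 12.5 to 23.9 CPM in parental and 13.3 to 23.5 CPM in mutant libraries.

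Trib3, a pseudokinase that dampens ATF4, had 35, 23, 9 and 2 counts in the parental and 7, 2, 20 and 8 counts in the mutant line. This spread among libraries of the same line left a 95% interval of -2.55 to 1.10 on the log2 scale. Chac1, a glutathione-degrading enzyme that is among the most responsive ATF4 targets, had 6, 6, 0 and 5 counts in parental and 3, 8, 5 and 0 counts in mutant libraries and did not pass the filter. In the edgeR fit without the filter its log2 fold change was -0.02 with an adjusted p of 0.997. With at most 8 counts in a library, a modest difference in Chac1 was not detectable.

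**Figure D2:**
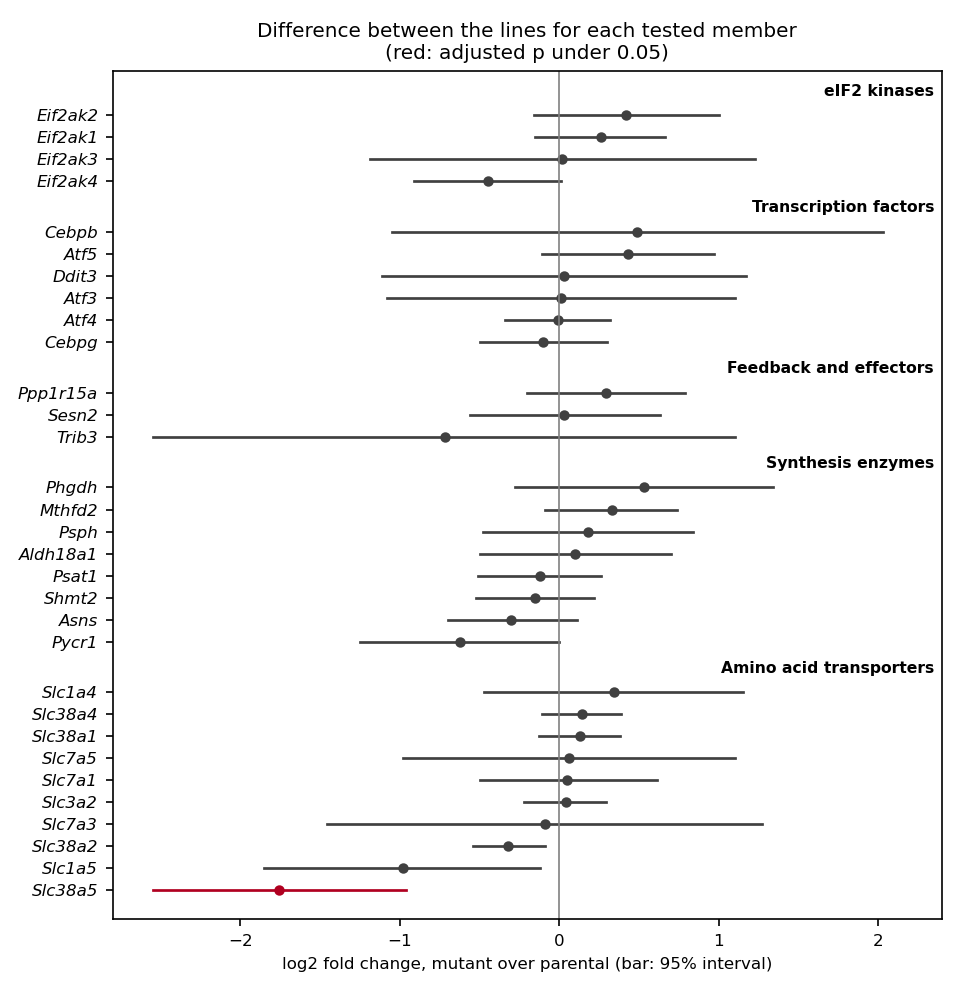
Log2 fold change of the mutant over the parental line for the 31 tested genes, by role, with 95% intervals; red marks an edgeR adjusted p under 0.05. Slc38a5 at -1.76 is marked, and the intervals of 28 of the 31 genes hold 0.

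The enzymes of amino acid synthesis were split evenly in sign, 4 above and 4 below 0, with 0 of 8 called by edgeR, DESeq2 or limma-voom and 0 at an unadjusted edgeR p under 0.05. Psat1, the transaminase of serine synthesis, had the highest mean level of these, with 51.8, 63.9, 72.8 and 65.3 CPM in parental and 39.6, 59.5, 73.0 and 61.3 CPM in mutant libraries 1 to 4. The lines overlapped, with mutant library 1 lowest of all and mutant library 3 level with the highest parental value. Its log2 fold change was -0.12 ± 0.18, with a 95% interval of -0.51 to 0.26, and its sign changed when mutant library 1 was left out. Phgdh, which opens the serine pathway, and Psph, which closes it, had log2 fold changes of 0.53 ± 0.39 and 0.18 ± 0.31. The estimates of the 3 serine pathway enzymes differed in sign, but the 95% interval of each held 0, so that their directions are not settled.

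The mitochondrial folate enzymes Shmt2 and Mthfd2, which turn serine into one-carbon units, had log2 fold changes of -0.15 ± 0.18 and 0.33 ± 0.20. Asns, the asparagine synthetase whose promoter match is printed above, had 36.2 to 46.3 CPM in parental and 25.1 to 40.4 CPM in mutant libraries, a log2 fold change of -0.30 ± 0.19 (edgeR adjusted p 0.591). Pycr1, the last enzyme of proline synthesis and another gene with a printed match, had 20, 19.4, 10.2 and 19.2 CPM in parental libraries 1 to 4 and 9.59 to 12.4 CPM in mutant libraries. Parental library 3 lay among the mutant values, and the log2 fold change of -0.62 ± 0.30 had an edgeR adjusted p of 0.42. Aldh18a1, which makes the proline precursor upstream of Pycr1, had a log2 fold change of 0.10 ± 0.29. Of the 8 genes with a promoter match, 5 were tested, 0 were called by edgeR, DESeq2 or limma-voom or had an unadjusted edgeR p under 0.05, and their median log2 fold change was -0.30, with 2 above and 3 below 0. The other 3, Nupr1, Chac1 and Slc7a11, did not pass the filter.

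Among the transporters, Slc38a5 (SNAT5, a sodium-coupled transporter of glutamine, serine, glycine and other small neutral amino acids) was the called gene. Slc38a5 (ENSMUSG00000031170.14) codes for a protein and lies on chromosome X, 8271133 to 8280179 on the plus strand (GRCm38). Its levels were 18.7, 21.5, 27.9 and 23.4 CPM in parental libraries 1 to 4, from 103 to 175 counts. In mutant libraries 1 to 4 they were 4.87, 13.3, 5.99 and 2.75 CPM, from 29, 61, 33 and 10 counts. Every mutant value lay below every parental value, and mutant library 2 was the closest to the parental range. Means were 22.9 ± 3.86 and 6.73 ± 4.58 CPM (SD, n = 4), a fitted 3.38-fold lower level in the mutant line. The log2 fold change was -1.76 ± 0.38 (SE), with a 95% interval of -2.55 to -0.96 and an edgeR adjusted p of 0.0212. Slc38a5 was the only 1 of the 31 tested genes without overlap between the lines, compared with 7.52% of all tested genes (4.04% lower and 3.49% higher in the mutant line).

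The call for Slc38a5 depended on which libraries were included, while its direction was the same in all 18 alternative fits. These fits reuse the same libraries, in which every mutant value lay below every parental value, so the constant direction is not separate evidence. Without mutant library 4 the log2 fold change was -1.53 with an edgeR adjusted p of 0.0237, and without mutant library 2 it was -2.31 with 0.00146. Leaving out parental library 2, 3 or 4 or mutant library 1 or 3 ended the call, with log2 fold changes of -1.79 to -1.63 and adjusted p-values of 0.0692, 0.098, 0.0542, 0.0709 and 0.0714. The promoter window of Slc38a5 held no match to the core TGATGNAA.

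Levels of other gene groups differed between the lines along with that of Slc38a5. The 18 listed glycolysis and hypoxia genes all had log2 fold changes below 0, with 7 called lower by edgeR (9 by DESeq2 and 10 by limma-voom) and a median of -0.69. Over all tested genes 0.67% were called lower by edgeR, and this list was chosen with earlier results of these data known. Summed levels of the 18 listed genes were 3559, 3468, 3424 and 2858 CPM in parental and 1817, 2641, 1703 and 1597 CPM in mutant libraries 1 to 4. Mutant library 2 was the highest and mutant library 4 the lowest of its line for both Slc38a5 and these sums. Mutant libraries 1 and 3 were close in both, at 4.87 and 5.99 CPM for Slc38a5, and in opposite order. Parental library 1 had the lowest Slc38a5 of its line and the highest sum. A link between these levels across libraries was not tested. By edgeR, globin genes were also called higher and Foxa2 and Krt18, of the endoderm and epithelial list, lower. Of the cardiac mesoderm genes 0 of 14 were called by edgeR, and their sums overlapped. Their median log2 fold change was nevertheless -0.69, with 11 of 14 below 0. The values of the 2 lines were fully apart for 3 cardiac mesoderm genes, in both directions: Isl1 and Hand1 lower, Hand2 higher. Such separation was seen for 7.52% of all tested genes, 4.04% lower and 3.49% higher. An unadjusted edgeR p under 0.05 was found for 9 of the 14 genes (64.3%, compared with 11.9% of all tested genes), 7 lower and 2 higher. The part of any of these groups in the fall of Slc38a5 was not tested.

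**Figure D3:**
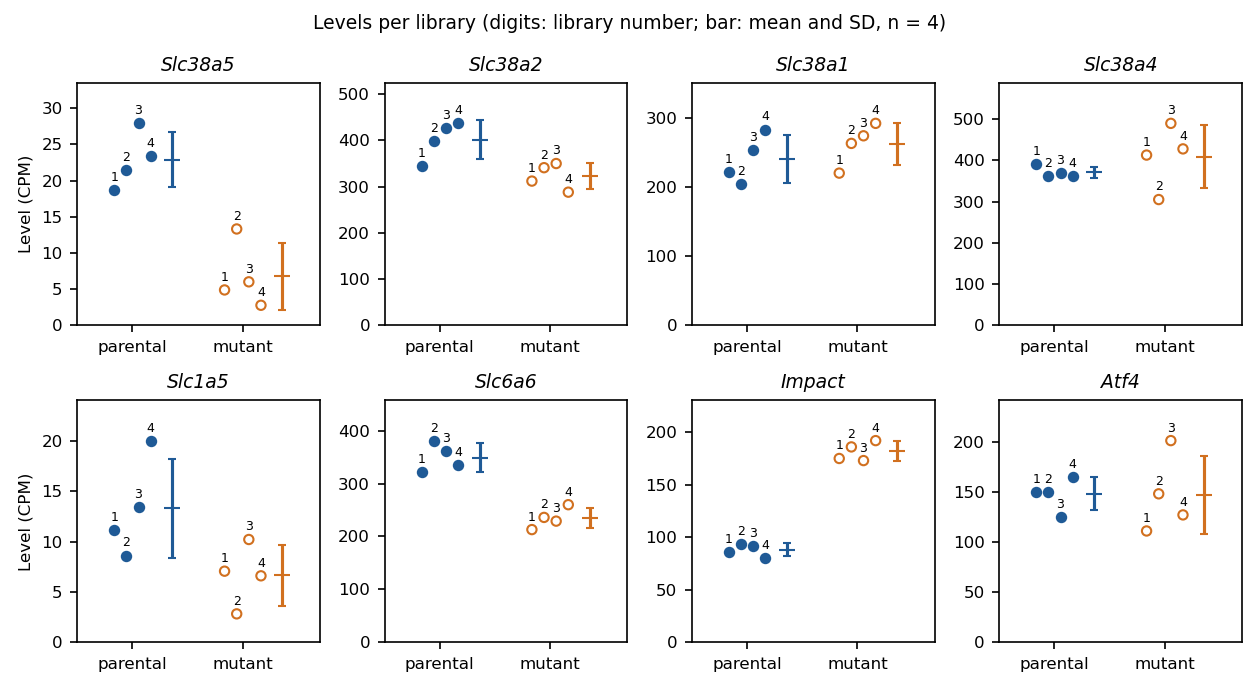
Levels in CPM of 6 transporters, Impact and Atf4 in each library (digits give the library number), with the mean and SD of 4 libraries. Mutant libraries of Slc38a5 and Slc6a6 lie below and those of Impact above all parental libraries, and the lines overlap in the other 5 panels.

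The other 3 members of its family among the 35 genes were not called, and a difference between family members was not tested. Slc38a1, Slc38a2 and Slc38a4, also importers of small neutral amino acids, lie side by side on the minus strand of chromosome 15 within 485 kb, from 96571418 to 97055956, whereas Slc38a5 is on chromosome X. Slc38a2 (SNAT2), the family member best known to be raised by amino acid starvation, had 344, 398, 427 and 437 CPM in parental and 312, 341, 350 and 288 CPM in mutant libraries 1 to 4. Of the mutant values 3 lay below every parental value, and mutant library 3 exceeded parental library 1. The log2 fold change was -0.32 ± 0.11, with a 95% interval of -0.54 to -0.09, but the edgeR adjusted p was 0.193, and 0.0731 to 0.423 over 18 alternatives. The difference thus did not pass over all genes.

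Slc38a4, an imprinted gene expressed mainly from the paternal allele, was the transporter with the highest mean over the 8 libraries. It had 391, 362, 369 and 363 CPM in parental and 413, 305, 490 and 428 CPM in mutant libraries 1 to 4. The mutant values were the more scattered, with an SD of 76.9 compared with 13.4 CPM, and lay on both sides of the parental values. Its log2 fold change of 0.14 ± 0.12 had an edgeR adjusted p of 0.72. Slc38a1 had 204 to 283 CPM in parental and 220 to 292 CPM in mutant libraries, and its log2 fold change of 0.13 ± 0.12 had a 95% interval of -0.13 to 0.38.

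Slc1a5 (ASCT2), an exchanger of neutral amino acids and a main route of glutamine entry, had 11.1, 8.61, 13.4 and 20 CPM in parental and 7.06, 2.83, 10.2 and 6.6 CPM in mutant libraries 1 to 4. Mutant library 3 overlapped the parental range and the other 3 mutant libraries lay below it. Its log2 fold change was -0.98 ± 0.41, with a 95% interval of -1.85 to -0.12 and an edgeR adjusted p of 0.338, which does not pass. Slc1a4 (ASCT1), its relative with a printed promoter match, had 7.82 to 9.51 CPM in parental and 5.71 to 18.7 CPM in mutant libraries, and a log2 fold change of 0.34 ± 0.38.

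The heteromeric transporters pair a heavy with a light chain. Slc3a2 (4F2hc), the heavy chain that brings several light chains to the cell surface, had 134, 134, 106 and 115 CPM in parental and 122, 127, 131 and 122 CPM in mutant libraries 1 to 4. All 4 mutant values lay inside the parental range, and the log2 fold change of 0.04 ± 0.12 had a 95% interval of -0.22 to 0.29. Slc7a5 (LAT1), its light chain for large neutral amino acids, was low, at 3.35 to 6.73 CPM over the 8 libraries. Slc7a11 (xCT), its light chain for cystine import, had 5, 0, 10 and 24 counts in parental and 1, 3, 15 and 15 counts in mutant libraries and did not pass the filter. The 6 light chains Slc7a5, Slc7a6, Slc7a7, Slc7a8, Slc7a10 and Slc7a11 summed to 34.3 to 44.5 CPM in parental and 40.1 to 49.2 CPM in mutant libraries, a set written after the values were seen.

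The cationic amino acid transporters Slc7a1 and Slc7a3, importers of arginine and lysine, had log2 fold changes of 0.05 ± 0.26 and -0.09 ± 0.65. Slc7a1 had 19.2 to 26.2 CPM in parental and 14.3 to 33.9 CPM in mutant libraries, and Slc7a3 did not exceed 5.48 CPM in any library. Slc6a9 (GlyT1), a glycine transporter, had 16, 13, 5 and 12 counts in parental and 2, 6, 0 and 0 counts in mutant libraries. The value of mutant library 2 overlapped that of parental library 3, and the gene did not pass the filter with all libraries. In the 6 alternative fits that kept it, its log2 fold change was below 0 and its adjusted p was between 0.226 and 0.593.

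How small a difference these libraries could show varied with the level. Of the 30 tested genes that were not called, 18 had a 95% interval inside a 2-fold change in either direction. All 12 tested genes with a mean of at least 30 CPM, a bound set after the values were seen, were among them. Half-widths of the intervals ran from 0.22 to 1.83 on the log2 scale. A missed threshold does not show that a gene had the same level in both lines. In M21, 7 of the 35 genes overlap another gene on the same strand, and reads there could have been lost or shared.

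Other genes of the pathway were described from lists written for this comparison, to place the 35 genes among their partners. Of 18 tested amino acid transporters outside the 35 genes, 0 were called higher and 1 lower (5.56%, compared with 0.67% of all tested genes). Their median log2 fold change was 0.15. At an unadjusted edgeR p under 0.05 stood 4 of them (22.2%, compared with 11.9% of all tested genes), Slc6a6 lower and Slc1a3, Slc7a2 and Slc43a3 with higher levels. The called gene was Slc6a6 (TauT, ENSMUSG00000030096.8), the taurine importer. It had 321, 381, 361 and 335 CPM in parental and 213, 236, 229 and 260 CPM in mutant libraries 1 to 4, so that all mutant values lay below all parental values. The log2 fold change was -0.58 ± 0.10 with an edgeR adjusted p of 0.00612, and the call held in all 18 alternative fits, with an adjusted p of up to 0.0445.

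Of 18 tested genes of the eIF2 machinery and the regulators of its kinases, 1 was called higher and 0 lower. This 1 gene is 5.56% of the list, compared with 0.745% of all tested genes called higher. At an unadjusted edgeR p under 0.05 stood 5 of them (27.8%, compared with 11.9% of all tested genes), Impact, Gcn1l1 and Ppp1ca with higher and Eif2s2 and Ppp1cc with lower levels, and Eif2s2 did not overlap between the lines (edgeR adjusted p 0.216). The called gene was Impact (ENSMUSG00000024423.6), an imprinted gene whose product inhibits GCN2 by competing for its activator GCN1. Impact had 86.4, 94.0, 91.8 and 80.7 CPM in parental and 175, 186, 173 and 192 CPM in mutant libraries 1 to 4, a 2.06-fold higher level without overlap. Its log2 fold change was 1.04 ± 0.11 with an edgeR adjusted p of 4.99e-05. The gene of the activator, Gcn1l1, had a log2 fold change of 0.51 ± 0.18 that did not pass, with an adjusted p of 0.227. The median over these 18 genes was -0.03.

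The 20 aminoacyl-tRNA synthetase genes, many of them known ATF4 targets, had 0 calls by edgeR, DESeq2 or limma-voom, 0 with an unadjusted edgeR p under 0.05 and log2 fold changes from -0.30 to 0.28. The smallest p among them was that of Dars, with an edgeR adjusted p of 0.443 and a log2 fold change of -0.30 ± 0.15. Among 32 tested genes of folate, serine, proline and glutamine metabolism, 0 were called by the same 3 tools. An unadjusted edgeR p under 0.05 was found for 4 (12.5%, compared with 11.9% of all tested genes). These were Oat and Slc25a32 with higher and Mthfd1l and Gldc with lower levels. Oat was nearest, at an edgeR adjusted p of 0.238, and Slc25a32 did not overlap between the lines (edgeR adjusted p 0.268). Among 23 tested genes of the unfolded protein response of the endoplasmic reticulum, 0 were called by these tools and 1 had an unadjusted edgeR p under 0.05. This was Wfs1, at 0.211 to 1.97 CPM in parental and 3.19 to 5.45 CPM in mutant libraries (edgeR adjusted p 0.219).

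A last list of nutrient sensing and other ATF4 targets had 27 tested genes, 0 calls by these tools and 6 genes (22.2%, compared with 11.9% of all tested genes) with an unadjusted edgeR p under 0.05, of which 5 had higher and 1 lower levels. It also lists Slc7a11, which was not tested, and it shares Gpt2 with the folate and serine list, as the eIF2 and unfolded protein lists share Dnajc3. Gclc, a subunit of the enzyme that limits glutathione synthesis, had 47.8 to 57.4 CPM in parental and 61 to 102 CPM in mutant libraries (edgeR adjusted p 0.131). The lower gene was Ddit4, an inhibitor of mTORC1 that is also induced by hypoxia, whose log2 fold change of -0.69 ± 0.26 had an adjusted p of 0.253. Medians of these lists lay between -0.05 and 0.15 on the log2 scale, compared with -0.69 for the glycolysis and hypoxia list.

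**Figure D4:**
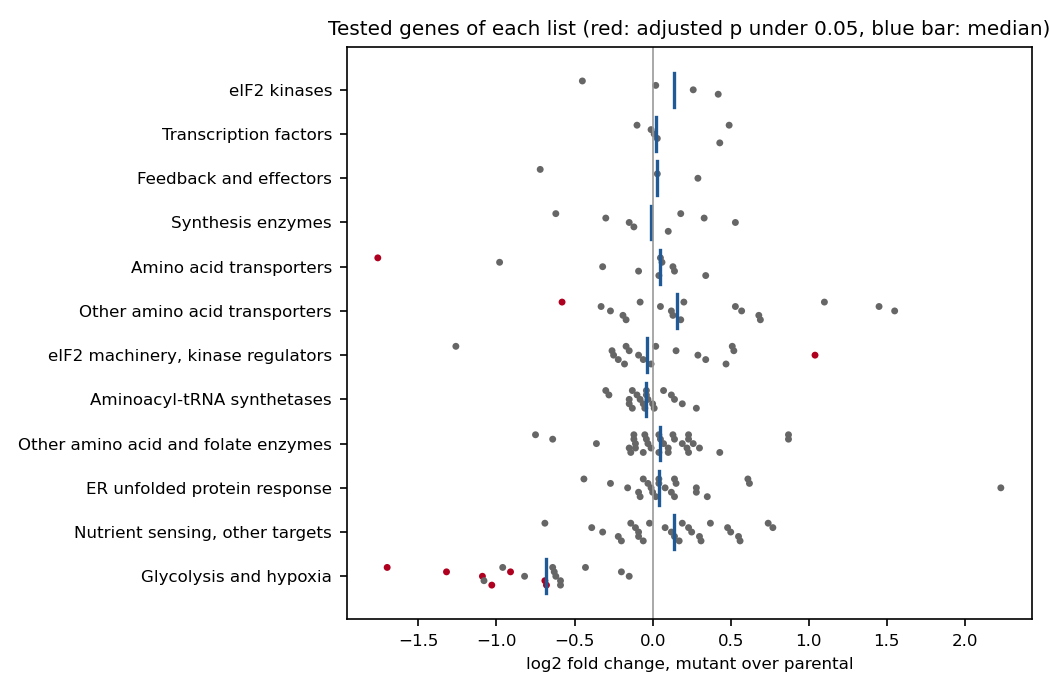
Log2 fold change, mutant over parental, of each tested gene in the 5 role groups, 6 further pathway lists and the glycolysis and hypoxia list; red marks an edgeR adjusted p under 0.05 and blue bars the medians. The 11 pathway groups centre between -0.05 and 0.15 with 3 red points in all, and the glycolysis and hypoxia list centres at -0.69 with 7.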

How the data were processed

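The authors deposited whole-number counts per gene for 8 libraries, made with STAR and featureCounts on mm10 per the submitters' processing notes. Counting on the forward strand is stated by the name of the deposited table; versions, annotation and duplicate removal are not given in the sources used here. Symbols and positions came from GENCODE M21 (GRCm38), with 55141 of 55487 identifiers matched, and promoter sequences from RefSeq (GRCm38.p6). Genes were kept by filterByExpr (13280 genes, 99.5% of counts), scaled by TMM and compared with edgeR 4.0.16 (quasi-likelihood F test, line as the only term) in R 4.3.3, with Benjamini-Hochberg adjustment over all tested genes. Standard errors (the absolute log2 fold change over the root of F) gave 95% intervals. The script was tested on simulated data. DESeq2 1.42.0 and limma-voom (limma 3.58.1) were alternatives. QuantSeq counts transcript ends, so no length scaling was applied. Reads without molecular identifiers are not independent molecules, so count floors cover counting error only.

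The 35 genes and all lists were chosen with earlier results of these data known. Values in every library were given for genes with an unadjusted p under 0.05 or without overlap, and for the gene with the highest mean in each role group; of other lists, called genes or else the gene with the smallest p were named. Further genes were named after their values were seen.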

Additional observations from a re-analysis of the deposited data

Results flagged for a closer look

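Of 76 sets of 4 libraries of a line, taken over the tested and named genes, 2 had a library far from the other 3 by Dixon's test, where chance gives about 1 in 20. In the parental line, Pycr1 had 10.2 CPM in library 3 and 19.2 to 20 CPM in the others, a gap of 0.915 of the whole range. Dars had 66.4 CPM in parental library 3 and 74.8 to 75.4 CPM in the others, a gap of 0.931 of the range. The lone low value of Pycr1 is what made its lines overlap. Pycr1 was nevertheless called in 0 of 18 alternative fits, which include the fit without parental library 3.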

How the results depend on the processing

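With all 8 libraries and a threshold of 0.05, the counts of 0 higher and 1 lower among the 35 genes were the same under all 10 other settings of scaling, filter and test, and the gene was Slc38a5 each time. The lower count was 0 at a threshold of 0.01 and was 0 to 1 when single libraries were left out, with 0 in 5 of these 8 fits. The higher count was 0 throughout. Over all genes, 188 were called; 439 without the filter, 399 with DESeq2, 314 with the bias-adjusted quasi-likelihood, 86 at a threshold of 0.01 and 103 to 235 when single libraries were left out, with the lowest counts without parental library 2 (103), parental library 3 (104) and mutant library 3 (116). Scaling by library size alone gave 157, of which 63.7% were higher compared with 52.7%. Atf4 had log2 fold changes of 0.02 with library size alone and 0.05, 0.10 and 0.05 without parental library 4, mutant library 1 and mutant library 4, and Psat1 had 0.02 without mutant library 1; over single libraries left out their ranges were -0.21 to 0.10 and -0.26 to 0.02, and the cause was not tested. Deviations of same-numbered libraries from their line means correlated at -0.0331 to 0.102, and not every library correlated best with its own number, so that the numbers were not taken as pairs. A fit with a replicate block called 234 genes, which included 172 of the 188, and Slc38a5 had -1.91 with an adjusted p of 0.0101. Total counts differed by -696331 between the lines (two-sided exact permutation test, p = 0.257), and by -991232 to -333862 without single libraries.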
